A study of Rattus norvegicus with 9 samples.

Results

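The comparison set the cardiac libraries whose sample columns are headed Model against those headed Con, the sham-operated rats that the labels call Control, over the genes that 2 deposited tables have in common. One table lists 4288 genes of the Cal and model groups and the other lists 2458 genes of the model and sham groups. Of the 5760 genes in either table, 986 are in both, and these 986 genes were analysed here. No deposited table holds the columns headed Model and Con together, so the level of each gene was carried from one table to the other through the libraries headed Cal, which both contain.

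The animals were male Sprague Dawley rats. RNA of the heart was extracted from 3 rats of each of 3 groups, purified with poly-T beads and sequenced. Heart failure (HF) was induced in the Model and Cal groups by tying off the left anterior descending artery of the heart, while Control rats had a sham operation. Cal rats then received calycosin (Cal), a plant isoflavone, orally at 80 mg/kg per day for 28 days, and the Model and Control rats received distilled water. The 3 rats per group were drawn at random from larger groups, so p-values measure the spread between these animals.

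The headings of the tables conflict, and every direction given here depends on that. Each table also carries the authors' group means. In the first table, for 4288 of 4288 genes, the mean under the heading Cal was that of Model 1 to 3, and the mean under the heading Model was that of Cal 1 to 3. In the second, for 2458 of 2458 genes, the mean under the heading Model was likewise that of the Cal-headed sample columns, and the sham mean was that of the columns headed Con. By the sample headings, the comparison is therefore HF without treatment against sham. By the mean columns, the same libraries are the Cal-treated group, and the comparison is Cal-treated HF against sham. The second table is also named for Model and Con, as its mean columns are, although its sample columns are headed Cal and Con. Which heading is right was not settled here, so libraries are named below by the heading of their sample column.

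An infarcted heart is known to go through an acute inflammatory phase, in which injured tissue and blood vessels release chemokines that draw in neutrophils and monocytes, and then a repair phase with matrix deposition. Interleukins, TNF and interferons act on heart cells through NF-κB and JAK-STAT signalling and switch on acute-phase, chemokine and antiviral genes. The capillary endothelium, a major non-muscle cell type of the heart, carries fatty acids to the muscle and keeps a characteristic set of receptors, caveolae and Notch target genes.

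Reads on the 986 genes numbered 987364 to 1231955 in the libraries headed Model, 729750 to 800914 in those headed Con and 917200 to 1067142 in those headed Cal. Reads on genes outside the tables are not known here. The reads of the Cal-headed libraries were identical in both tables for 986 of 986 genes, and the values of the second table were 1.118 times those of the first. The factor was 1.118, 1.121 and 1.115 from each Cal-headed library alone, a spread of 0.0081 on the log2 scale. All values below are normalized counts on the scale of the Cal and model table. Within groups, the median SD of log2(normalized count + 1) was 0.35 in the libraries headed Model and 0.18 in those headed Con. Libraries under one heading were further apart than counting noise allows, with a chi-square per degree of freedom of 10.1 to 93.4, so none was a duplicate.

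Of the 986 genes, 618 (62.7%) were called different between the libraries headed Model and those headed Con, by a limma adjusted p below 0.05 together with a log2 difference of more than 1 either way. In the libraries headed Model, 354 genes were higher (35.9%) and 264 lower (26.8%). The 3 libraries of one heading all lay above the 3 of the other in 738 genes (74.8%), including 613 of the called genes. Counts of called or non-overlapping genes in the lists below are to be read beside these shares. These shares describe selected genes: each gene is in the tables because the authors' own tests found the Cal-headed libraries to differ from both other sets. The split depends on the scaling, since quantile normalization gave 288 higher and 331 lower genes, that is 46.5% higher against 57.3% as reported. Scalings by median ratio, TMM or quantiles, or no bridge, lowered the median log2 fold change of all 986 genes, 0.16 as reported, by 0.16 to 0.35. Differences of that size or smaller therefore depend on the scaling. Some single genes named below moved by more than that with quantile normalization, so larger differences can depend on it too.

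The higher genes reached much larger differences than the lower ones. A log2 fold change above 4 was found in 85 called genes and one below -4 in 28, and beyond 5 the counts were 55 and 7. The medians were 2.31 over the higher and -2.11 over the lower genes. Of the 986 genes, 936 are annotated as protein-coding, and the higher genes had a median length of 3694.5 bases, against 4768 for the lower and 4416 for those not called. An exact permutation test of 3 against 3 libraries cannot go below p = 0.1, so statements on single genes rest on the limma fit across the 986 genes.

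**Figure D1:**
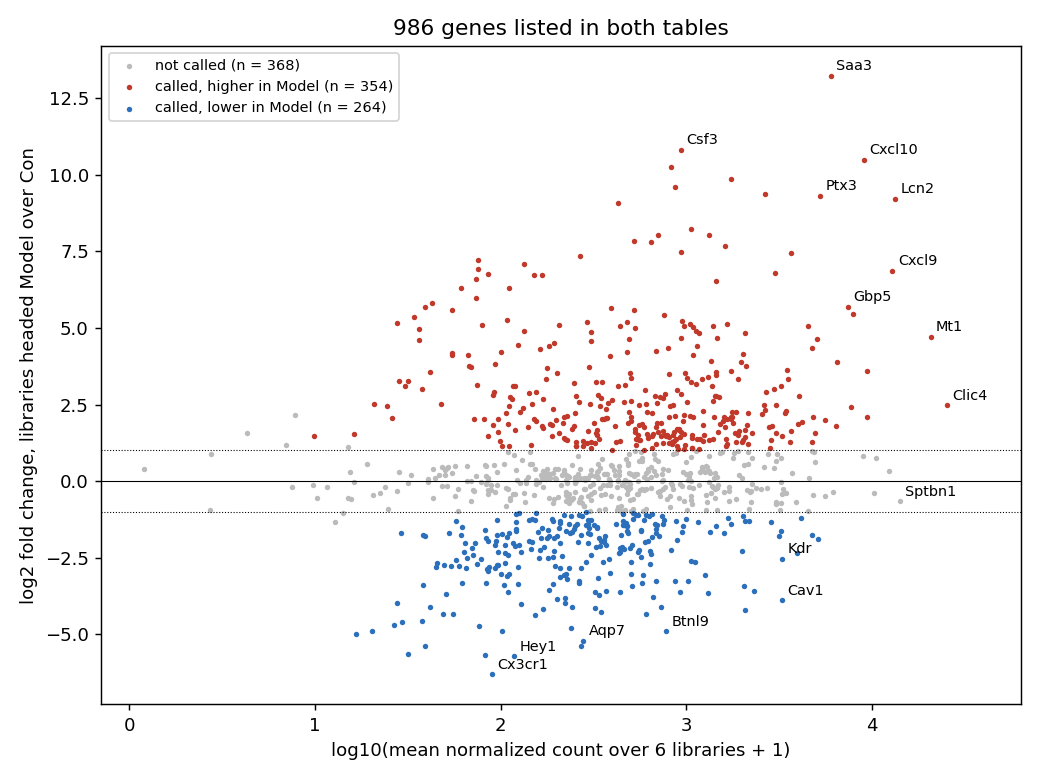
Each point is 1 of the 986 genes, with log10 of its mean normalized count plus 1 over the 6 libraries on the x axis and its log2 fold change (Model over Con by sample heading) on the y axis. Called genes are coloured (354 higher, 264 lower), and the dotted lines mark a log2 fold change of 1 and -1. The higher genes reach 13.23 (Saa3) and the lower ones -6.31 (Cx3cr1).

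Acute-phase genes rose. All 12 shared genes of the acute-phase list (32 genes) were called higher in the libraries headed Model, with a median log2 fold change of 7.15, or 7.25 with the zero group of one gene at its bound, against 0.16 over all 986 genes. Saa3, a serum amyloid A protein made by inflamed tissue, had 14370, 11344 and 10275 normalized counts in the libraries headed Model and 0, 0 and 0.905 in those headed Con. A single read lay behind the latter values, and the ratio of reads was 41150 with an exact 95% counting interval of 7385 to 1625385 (limma adjusted p = 5.58e-09). The groups were apart by more than the whole range within either of them. Serum amyloid A genes form a family of related copies, and whether reads were split between them is not known here.

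Lcn2 encodes lipocalin-2, an iron-scavenging protein of neutrophils and inflamed epithelium and muscle. It reached 27246, 28032 and 24834 normalized counts in the libraries headed Model, among the 5 highest mean levels over the 6 libraries, and 41.7, 30.7 and 66.1 in those headed Con (log2 fold change 9.21 ± 0.26 SE, limma adjusted p = 1.06e-08). In the Cal-headed libraries it was at 130, 379 and 295, far closer to Con than to Model. Ptx3, the long pentraxin that binds microbes and complement, had 5512, 14286 and 11645 against 14.2, 9.66 and 20.8 (log2 fold change 9.32 ± 0.38, adjusted p = 1.05e-07). Every library headed Model stood far above every Con library for both genes.

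Among the remaining acute-phase genes, the serine protease inhibitor genes Serpina3f, Serpina3g and Serpina3i had log2 fold changes of 9.86, 7.48 and 7.08, and they belong to a cluster of close copies whose reads may be shared. Lrg1, a secreted leucine-rich glycoprotein, had 8421, 8630 and 12255 against 412, 343 and 413 (log2 fold change 4.63 ± 0.19). Hamp, the iron hormone hepcidin, rose by 4.59 on the log2 scale, and Steap4, a metalloreductase, by 3.90. C3, the central complement component, rose least in this list, from 2333, 2699 and 2373 to 7691, 6957 and 7533 (log2 fold change 1.58), and with quantile normalization its 0.67 was no longer a call. The metal-binding metallothioneins Mt1 and Mt2, neighbours on the deposited chromosome 8, rose together: Mt1 had 39899, 40817 and 38991 normalized counts against 1366, 1788 and 1445, and Mt2 had 131, 183 and 134 against 0 in every library headed Con, at least 171-fold higher with a floor of 3 reads over the group.

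Chemokine ligands rose with 11 of 13 shared genes (38 in the list) called higher and 1 lower, and a median log2 fold change of 6.87. The largest rises among them were of Cxcl10 and Cxcl11, which like Cxcl9 are ligands of CXCR3, a receptor of activated T cells. Cxcl10 had 13879, 24438 and 15706 normalized counts in the libraries headed Model and 9.16, 30.7 and 4.53 in those headed Con (log2 fold change 10.49 ± 0.54, limma adjusted p = 3.88e-07). Cxcl9 had 27037, 34380 and 15221 against 131, 339 and 197 (6.87 ± 0.37, adjusted p = 4.39e-07). Cxcl11 had 987, 2741 and 1222 against 0, 0.878 and 0, with 1 read over the libraries headed Con and a ratio of reads of 5478 (exact 95% counting interval 983 to 216425). The lowest library headed Model was above the highest headed Con for each of them.

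The deposited coordinates are those of mouse genes, with no genome build named. They place Cxcl9 (5, 92321347 to 92328079), Cxcl10 (5, 92346638 to 92348889) and Cxcl11 (5, 92359544 to 92365485) side by side on the minus strand of chromosome 5. A second run of chemokine genes lies on the plus strand of the same chromosome and holds Cxcl5 (90759360 to 90761624), Pf4 (90772435 to 90773383), Cxcl1 (90891241 to 90893115) and Cxcl2 (90903871 to 90905938). Cxcl5, Cxcl1 and Cxcl2 attract neutrophils and rose by 9.38, 7.43 and 8.04 on the log2 scale. Pf4, platelet factor 4, lies between them and did not pass the test, with 202, 102 and 286 normalized counts against 257, 278 and 310 (log2 fold change -0.63, limma 95% interval -1.40 to 0.14).

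The sequences before the start sites of Cxcl10, Cxcl11, Gbp5 and Lcn2 are shown as examples that hold matches to the motifs named below. These 4 genes had large rises and are textbook targets of interferon and NF-κB signalling. The rat RefSeq promoters of assembly GRCr8 were matched by symbol for 705 of the 986 genes. Each line gives the 250 bases upstream of the start, at chr14:15988816-15989065 on the plus strand (Cxcl10), chr14:15973478-15973727 on the plus strand (Cxcl11), chr2:233910749-233910998 on the plus strand (Gbp5) and chr3:36081781-36082030 on the minus strand (Lcn2). Capitals mark matches, on either strand, to the interferon-stimulated response element (GAAA, 2 bases of any kind, GAAA), the gamma-activated site TTCNNNGAA or the NF-κB consensus, and matches to different motifs were allowed to overlap.
Cxcl10: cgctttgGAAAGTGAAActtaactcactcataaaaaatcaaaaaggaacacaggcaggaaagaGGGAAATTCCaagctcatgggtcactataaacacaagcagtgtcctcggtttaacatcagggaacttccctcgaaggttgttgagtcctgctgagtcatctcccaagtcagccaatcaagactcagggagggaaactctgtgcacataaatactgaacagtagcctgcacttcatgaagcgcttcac
Cxcl11: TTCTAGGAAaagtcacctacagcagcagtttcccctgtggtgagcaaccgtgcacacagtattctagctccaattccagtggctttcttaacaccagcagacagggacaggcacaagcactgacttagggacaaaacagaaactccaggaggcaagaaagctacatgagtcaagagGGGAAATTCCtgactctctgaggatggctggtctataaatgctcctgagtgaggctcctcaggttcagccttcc
Gbp5: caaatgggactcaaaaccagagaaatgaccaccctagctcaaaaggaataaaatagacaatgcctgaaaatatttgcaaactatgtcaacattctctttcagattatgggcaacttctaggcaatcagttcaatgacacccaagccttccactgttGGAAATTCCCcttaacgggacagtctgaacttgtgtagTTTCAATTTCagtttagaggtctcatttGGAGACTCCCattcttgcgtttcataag
Lcn2: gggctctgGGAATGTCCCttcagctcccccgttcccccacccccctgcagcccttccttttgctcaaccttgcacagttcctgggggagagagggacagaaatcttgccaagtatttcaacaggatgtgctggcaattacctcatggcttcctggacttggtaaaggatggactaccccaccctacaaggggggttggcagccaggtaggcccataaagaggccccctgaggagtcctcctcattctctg
Cxcl10 holds an interferon-stimulated response element and an NF-κB match, Cxcl11 a gamma-activated site and an NF-κB match, Gbp5 an interferon-stimulated response element between NF-κB matches, and Lcn2 a single NF-κB match. Many other genes that rose held none of these motifs in their 250 bases, which says nothing about the factors. Among them were Saa3, Acod1, Clec4e, Cxcl9, Il1rn, Il1b, Tnf, Sele and Traf1. Others that rose, such as Ptx3, Cxcl2 and Tnip1, held NF-κB matches, and so did Kdr, Nrarp and Pik3r3, which were lower. The 4 genes shown therefore do not stand for all genes that rose.

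Over the promoters with an entry, the NF-κB consensus was found in 11.8% of 262 genes called higher, 5.46% of 183 called lower and 6.92% of 260 not called, against 3.52% of all 27457 promoters of the table. The interferon-stimulated response element was in 6.49%, 1.64% and 1.54%, against 3.29% of all. The gamma-activated site was in 9.16%, 3.83% and 5.77%, against 7.52% of all, and the E-box CACGTG in 9.16%, 6.56% and 4.62%, against 5.79%. These shares are descriptions without a test, and a match is not a bound site.

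CC chemokines rose as well. Ccl5, which attracts T cells and monocytes, had 2232, 3055 and 2629 against 13.3, 11.4 and 4.53 (log2 fold change 8.04 ± 0.35, limma adjusted p = 1.41e-07). The one chemokine called lower was Cxcl12, a homeostatic ligand made by stromal and endothelial cells that retains leukocytes through CXCR4. It had 389, 268 and 406 normalized counts in the libraries headed Model and 3781, 3598 and 3759 in those headed Con (log2 fold change -3.41 ± 0.19, adjusted p = 4.54e-07), and lay between at 2383, 2045 and 2390 in those headed Cal. Its receptor gene Cxcr4 was also lower, with 52.9, 24.4 and 29.7 against 117, 164 and 165 (log2 fold change -2.09).

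Of the 6 shared chemokine receptor genes 3 were called lower and 1 higher, against 26.8% and 35.9% of all 986 genes. Cx3cr1, the fractalkine receptor of resident macrophages and patrolling monocytes, had the largest fall among the genes with a mean of at least 100 normalized counts in the higher group. It had 2.16, 2.44 and 0 normalized counts in the libraries headed Model and 218, 156 and 155 in those headed Con (log2 fold change -6.31 ± 0.51, limma adjusted p = 3.8e-06), with 74.7, 46.9 and 59.8 in those headed Cal. Ackr4, a scavenging receptor, had 9.72, 1.22 and 2.88 against 112, 71.1 and 90.5. Ccrl2, which presents the attractant chemerin, rose from 177, 178 and 205 to 1039, 3026 and 1753. The monocyte receptor gene Ccr2 did not pass the test, with 43.2, 32.9 and 26.8 against 49.2, 56.2 and 44.3 (log2 fold change -0.55, limma 95% interval -1.22 to 0.13).

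**Figure D2:**
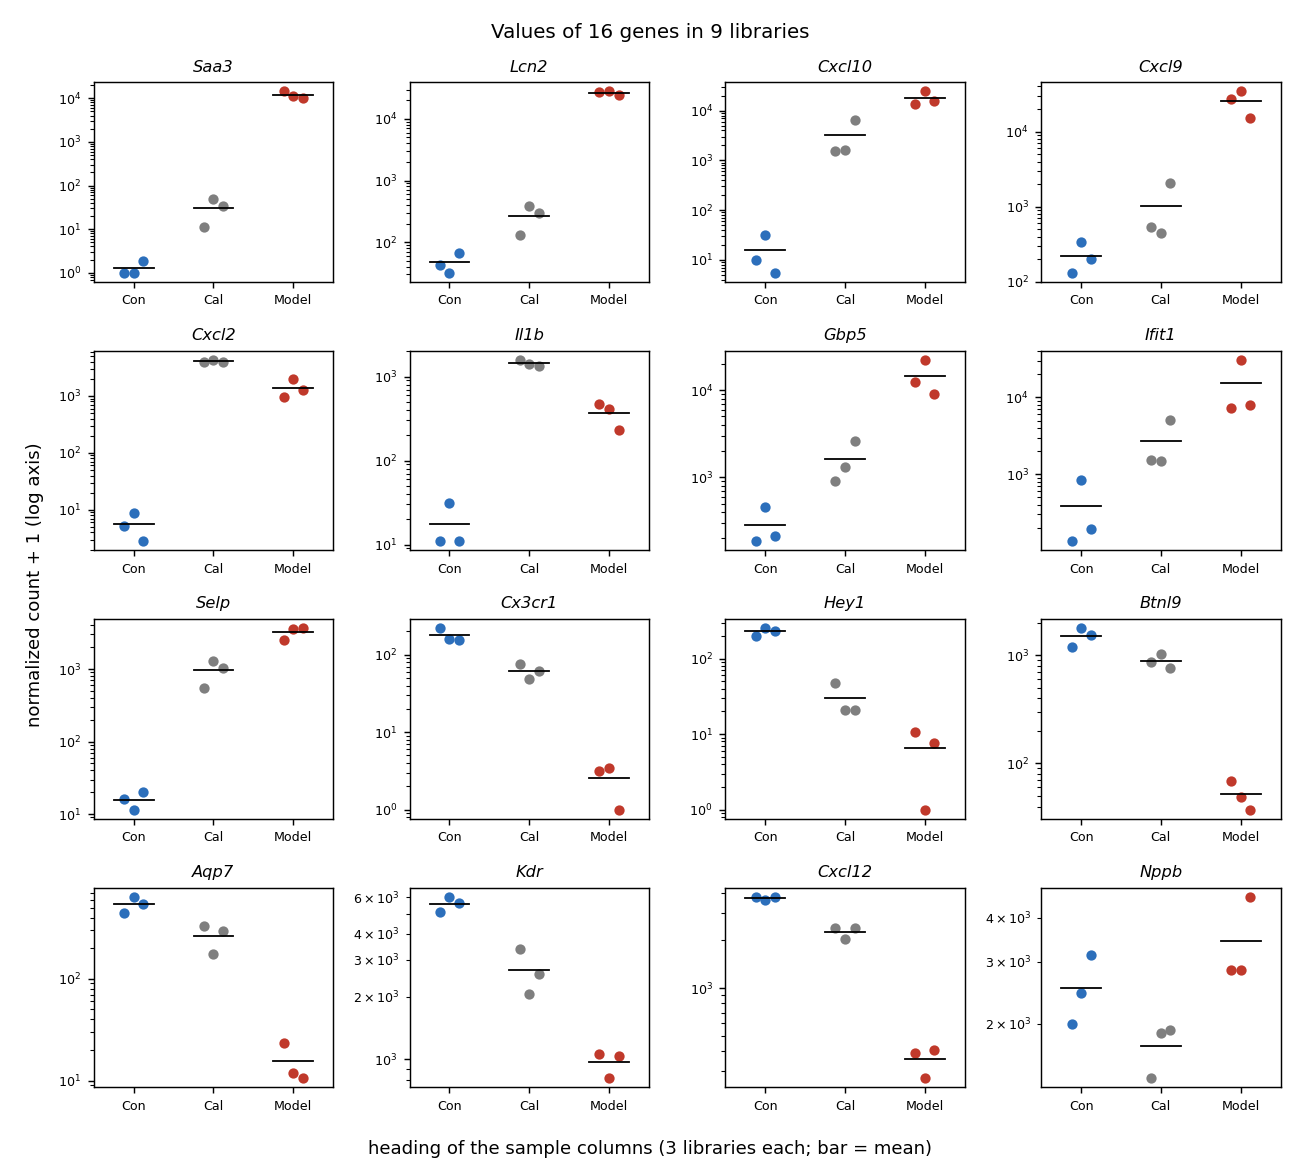
Normalized counts plus 1 on a log axis for 16 genes in the 9 libraries, grouped by the heading of the sample column (Con, Cal and Model, 3 libraries each), with the mean as a bar. From Saa3 to Selp every library headed Model lies above every library headed Con, and from Cx3cr1 to Cxcl12 every one lies below, while for Nppb the groups overlap. Cxcl2 and Il1b are highest in the libraries headed Cal.

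Interleukin and colony-stimulating factor genes rose in 6 of 7 shared genes (40 in the list), with a median log2 fold change of 4.51. Csf3, the growth factor of neutrophil production, had 1191, 2373 and 2070 normalized counts in the libraries headed Model and 0 in every library headed Con, at least 2156-fold higher with a floor of 3 reads over the group (limma adjusted p = 1.46e-08). Il1b, the inflammasome cytokine, had 468, 405 and 231 against 10, 29.9 and 9.96 (log2 fold change 4.51 ± 0.45, adjusted p = 1.28e-05), and 1582, 1404 and 1331 in the libraries headed Cal. Il1rn, which encodes the antagonist of the same receptor, had 1227, 2990 and 2139 against 6.67, 7.03 and 3.62 (log2 fold change 8.24 ± 0.36), but 137, 279 and 276 in those headed Cal. The agonist was thus highest under the Cal heading and the antagonist under the Model heading.

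Lif, a cytokine of the interleukin-6 family, rose by 4.10 on the log2 scale, and Csf1, the macrophage growth factor, by 2.79. Il27 had 21.6, 102 and 35.5 normalized counts against 1 read over the libraries headed Con, a ratio of reads of 174 (exact 95% counting interval 30.7 to 6924). All 4 shared interleukin receptor genes (40 in the list) were called higher, from 2.58 for Il17ra to 4.57 for Csf2rb2, which has a close copy. Tnf had 163, 132 and 87.2 against 13.3, 11.4 and 3.62 (log2 fold change 3.73 ± 0.47, limma adjusted p = 5.63e-05) and 757, 416 and 424 in the libraries headed Cal. In the TNF superfamily list (44 genes) 5 of 6 shared genes were called higher, against 35.9% of all 986 genes. The co-stimulatory receptor gene Cd40 led them, with 1323, 2615 and 1743 against 40.8, 56.2 and 66.1.

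Signalling genes downstream of these receptors rose as a group. In the JAK-STAT list (29 genes) 6 of 6 shared genes were called higher, against 35.9% of all 986 genes. Their median log2 fold change was 2.24. Socs1, the feedback inhibitor of JAK kinases, had 699, 1046 and 1333 normalized counts against 17.5, 24.6 and 17.2 (log2 fold change 5.60 ± 0.29, limma adjusted p = 3.88e-07). Stat3, the transcription factor of interleukin-6 signalling, had 7746, 9937 and 9116 against 2534, 2010 and 2130 (2.0 ± 0.16, adjusted p = 3.13e-06), and 2424, 3584 and 3022 in the libraries headed Cal. Both genes were separated in every library. In the NF-κB list (32 genes) 9 of 10 shared genes were called higher, against the same 35.9%. Ahead were Ikbke (4.40), Traf1 (3.69), Tnip1 (3.63) and Birc3 (3.56). These encode a kinase of the antiviral arm, an adaptor of TNF receptors, a binding protein of the inhibitor A20 and an inhibitor of apoptosis. Map3k14, the kinase of the non-canonical pathway, did not pass the test (-0.34).

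Interferon-induced genes were higher in every shared member. The antiviral GTPases numbered 5 of 24 in the list, all called, with a median log2 fold change of 4.66. The other interferon-stimulated genes numbered 10 of 74 in the list, all called, with a median of 3.87. Of all 986 genes, 35.9% were called higher. Gbp5, a guanylate-binding protein that promotes inflammasome assembly, had 12288, 22288 and 9137 normalized counts against 184, 454 and 212 (log2 fold change 5.70 ± 0.39, limma adjusted p = 1.34e-06). Ifit1, which binds viral RNA, had 7333, 30974 and 7912 against 132, 833 and 191 (5.45 ± 0.71, adjusted p = 6.67e-05). Oasl1, which restrains translation of an interferon regulator, had 1951, 8512 and 7472 against 31.7, 92.2 and 28.1 (6.81 ± 0.59, adjusted p = 5.91e-06).

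One library of the sham rats, Con 2, stood above the other two Con libraries in all of these genes except Irf8. The ubiquitin-like modifier Isg15 had 336 normalized counts in Con 2 against 75.0 and 91.4, and Mx2 had 128 against 27.5 and 32.6. Without Con 2, the counts of 5 and 10 calls were the same and the medians were 5.09 and 4.18. Tgtp1, Tgtp2 and Ifi47 lie close together on the deposited chromosome 11, between 48985327 and 49096974, and Tgtp1 and Tgtp2 are near-identical, so their separate values of 4.35 and 3.47 are uncertain.

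Sensors of microbial and damage signals were called higher in 11 of 11 shared genes (40 in the list), against 35.9% of all 986 genes. Their median log2 fold change was 4.31. Clec4e, the receptor Mincle that senses dying cells, had 950, 1251 and 358 normalized counts against 0, 1.76 and 0, a ratio of reads of 1408 (exact 95% counting interval 389 to 11629). The formyl peptide receptors Fpr1 and Fpr2, neighbours on chromosome 17, rose by 6.92 and 6.72. Casp4, the non-canonical inflammasome protease, had 1573, 2871 and 1085 against 45, 36.9 and 53.4 (log2 fold change 5.22 ± 0.34), and Nlrp3, the inflammasome sensor, had 340, 389 and 195 against 16.7, 14.9 and 10.9 (4.31 ± 0.33). The limma adjusted p-values were 9.86e-07 for Casp4 and 2.71e-06 for Nlrp3. Acod1 encodes the enzyme that makes the immune metabolite itaconate in activated macrophages. It had 1495, 2456 and 1252 against 0, 2.63 and 1.81 (9.58 ± 0.49, adjusted p = 3.88e-07).

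Some leukocyte markers moved with these groups. Of 14 neutrophil markers only S100a8 and S100a9, the calprotectin subunits, were among the 986 genes, and their summed level was 559 to 660 normalized counts in the libraries headed Model, 11.7 to 25.5 in those headed Con and 43.4 to 164 in those headed Cal. Of 18 macrophage markers, Cd14, Msr1 and Ccr2 were shared, with summed levels of 1403 to 1691, 224 to 314 and 1281 to 2026. Cd14 and Msr1 were called higher, with log2 fold changes of 2.57 and 3.10, while Ccr2 was not called (-0.55). Of 11 dendritic and mast cell markers, Zbtb46 and Kit were shared, and their summed level was lower in the libraries headed Model, at 301 to 505, than in those headed Con, at 530 to 599, with 672 to 838 in those headed Cal. Neither gene was called, with log2 fold changes of -0.98 and 0.22. No T or NK cell marker (of 18) and no B cell marker (of 8) was shared. The part of such cells in the immune gene changes was not tested, and in bulk heart RNA more cells of a type and more RNA per cell cannot be told apart.

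**Figure D3:**
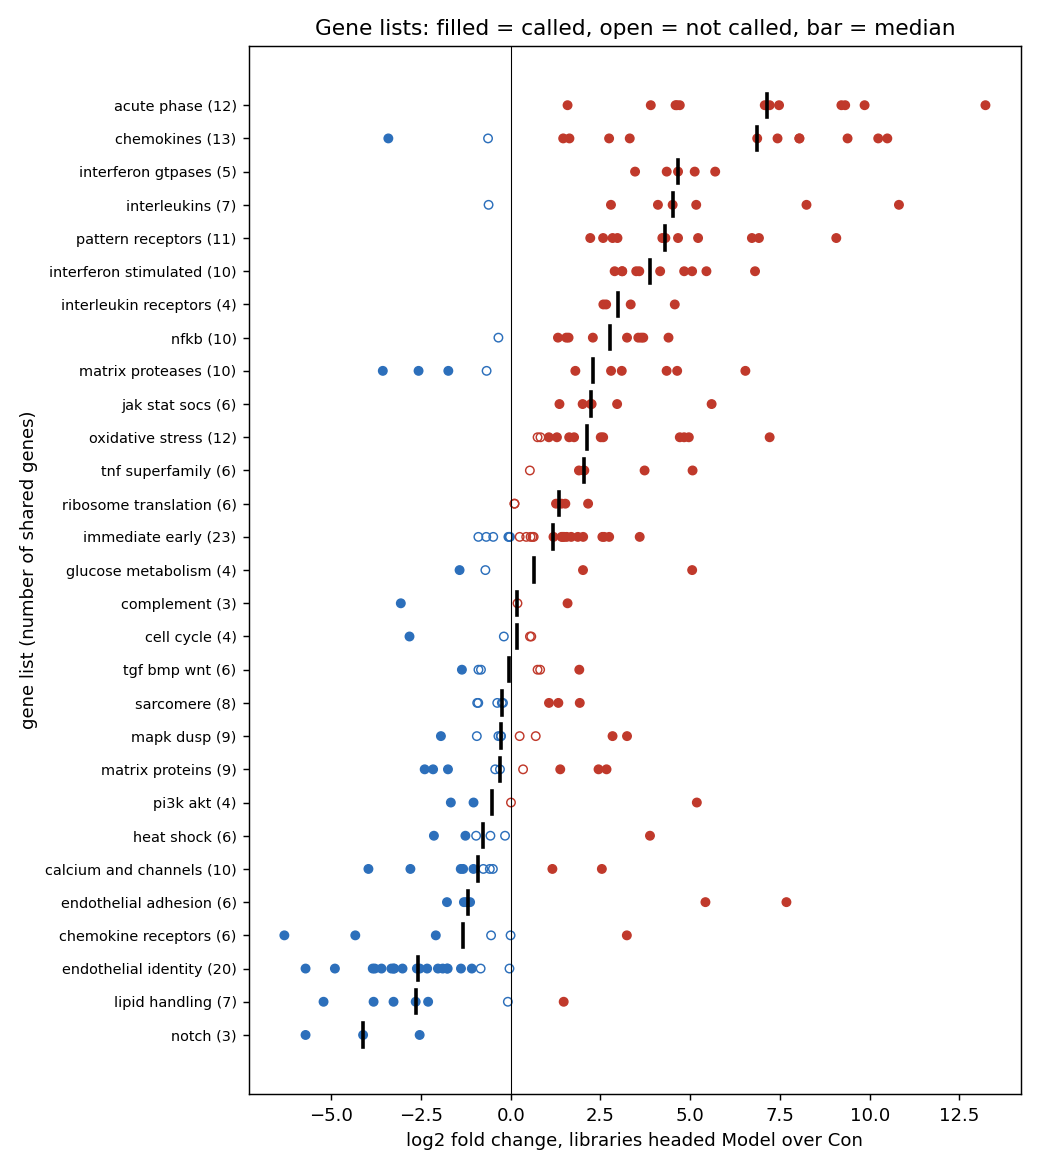
Log2 fold changes of the libraries headed Model over those headed Con for the members of each gene list with at least 3 shared genes, with called genes filled, others open and the median of the list as a bar. Acute-phase genes (median 7.15) and chemokines (6.87) lie at the top, and endothelial identity (-2.57), lipid handling (-2.65) and Notch genes (-4.11) at the bottom.

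Endothelial genes fell. Of 20 shared genes in the endothelial identity list (45 genes), 18 were called lower in the libraries headed Model and none higher, with a median log2 fold change of -2.57 against 0.16 over all 986 genes. Kdr, the main VEGF receptor, had 1060, 812 and 1040 normalized counts in the libraries headed Model and 5109, 6026 and 5644 in those headed Con (log2 fold change -2.53 ± 0.16, limma adjusted p = 1e-06), with 3383, 2054 and 2576 in those headed Cal. Tek, the angiopoietin receptor, had 243, 337 and 317 against 1700, 1887 and 1870 (-2.61 ± 0.19, adjusted p = 1.8e-06). No library headed Model came near the lowest Con value of either gene.

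Btnl9, a butyrophilin of capillary endothelium, had 68.0, 47.6 and 36.4 normalized counts against 1201, 1777 and 1553 (log2 fold change -4.90 ± 0.27, limma adjusted p = 4.39e-07), and 864, 1037 and 756 in the libraries headed Cal. Aplnr, the apelin receptor, had 118, 82.9 and 70.0 against 1299, 1123 and 1268 (-3.79 ± 0.23). Unlike Btnl9, it was also low in the libraries headed Cal, at 197, 147 and 157. Clec14a, a C-type lectin of vessels, fell by 3.84 and Egfl7, a secreted vessel protein, by 3.32 on the log2 scale. The endothelial transcription factor genes Erg and Fli1 fell by 1.76 and 2.03. Sox7, another endothelial transcription factor gene, had 489, 579 and 385 against 442, 517 and 512, with a limma 95% interval of -0.50 to 0.43, and Cldn5, the tight junction claudin, had 233, 315 and 373 against 464, 674 and 501 (-0.84, beyond the p threshold but within the fold limit). Both were highest in the libraries headed Cal.

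The summed level of the 7 shared endothelial markers, of 11 in the list, was 3238 to 4428 normalized counts in the libraries headed Model, 14337 to 17101 in those headed Con and 9483 to 11326 in those headed Cal. Fewer endothelial cells and less RNA per cell cannot be told apart in these bulk heart samples. Of 12 fibroblast markers Dcn (decorin) alone was shared, at 14495, 16752 and 10682 against 10577, 10289 and 11634 (log2 fold change 0.34, limma 95% interval -0.04 to 0.73). Of 11 mural cell markers Acta2 and Myh11, the smooth muscle actin and myosin, were shared, with -0.90 and -0.93.

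Notch target genes fell most among the lists. Hey1, a transcriptional repressor of arterial endothelium, had 9.72, 0 and 6.71 normalized counts against 201, 252 and 233 (log2 fold change -5.71 ± 0.76, limma adjusted p = 8.08e-05), and 47.0, 19.7 and 19.6 in the libraries headed Cal. Nrarp, a feedback regulator of the pathway, had 5.40, 2.44 and 2.88 against 55.0, 106 and 72.4 (-4.11 ± 0.42), and Heyl had 144, 89.0 and 107 against 629, 637 and 684 (-2.54 ± 0.22). All 3 shared genes of this list (20 genes) were called lower, against 26.8% of all 986 genes. Hey1 is also in the endothelial identity list. Their groups did not overlap, which also held for 74.8% of all 986 genes and for 613 of the 618 called.

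Most shared genes of lipid handling moved the same way, and Gpihbp1 among them is also in the endothelial identity list. In the lipid handling list 5 of 7 shared genes (55 in the list) were called lower and 1 higher, against 26.8% and 35.9% of all 986 genes. Gpihbp1, which anchors lipoprotein lipase on capillaries, had 139, 98.8 and 147 normalized counts against 947, 1572 and 1227 (log2 fold change -3.26 ± 0.25, limma adjusted p = 2.71e-06). Aqp7, a glycerol channel, had 22.7, 11 and 9.58 against 441, 639 and 541 (-5.21 ± 0.34, adjusted p = 1.03e-06). Tcf15, a transcription factor of capillary fatty acid transport, fell by 3.82 and Fabp5, a fatty acid carrier, by 2.30. The exception was Plin4, a lipid droplet protein, with 3973, 4374 and 6158 against 1837, 1616 and 1672. Hmgcs1, an enzyme of cholesterol synthesis, had -0.08 with a limma 95% interval of -0.52 to 0.36.

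Adhesion molecules of the endothelium split into rises and falls. The selectins that roll leukocytes on activated vessels, Sele and Selp, neighbours on chromosome 1, were higher. Selp had 2491, 3515 and 3646 normalized counts against 15, 10.5 and 19.0 (log2 fold change 7.68 ± 0.27, limma adjusted p = 3.83e-08), and Sele had 998, 1989 and 1476 against 44.2, 28.1 and 27.2 (5.43 ± 0.30). In the libraries headed Cal, Sele was higher still, at 5186, 7142 and 6601, while Selp was at 547, 1292 and 1038. The junctional genes Pecam1, Jam2 and Jam3 and the sialomucin gene Cd34 were called lower, with -1.78, -1.30, -1.24 and -1.13. Selectin transcripts were thus higher in libraries in which the summed endothelial markers were lower.

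**Figure D4:**
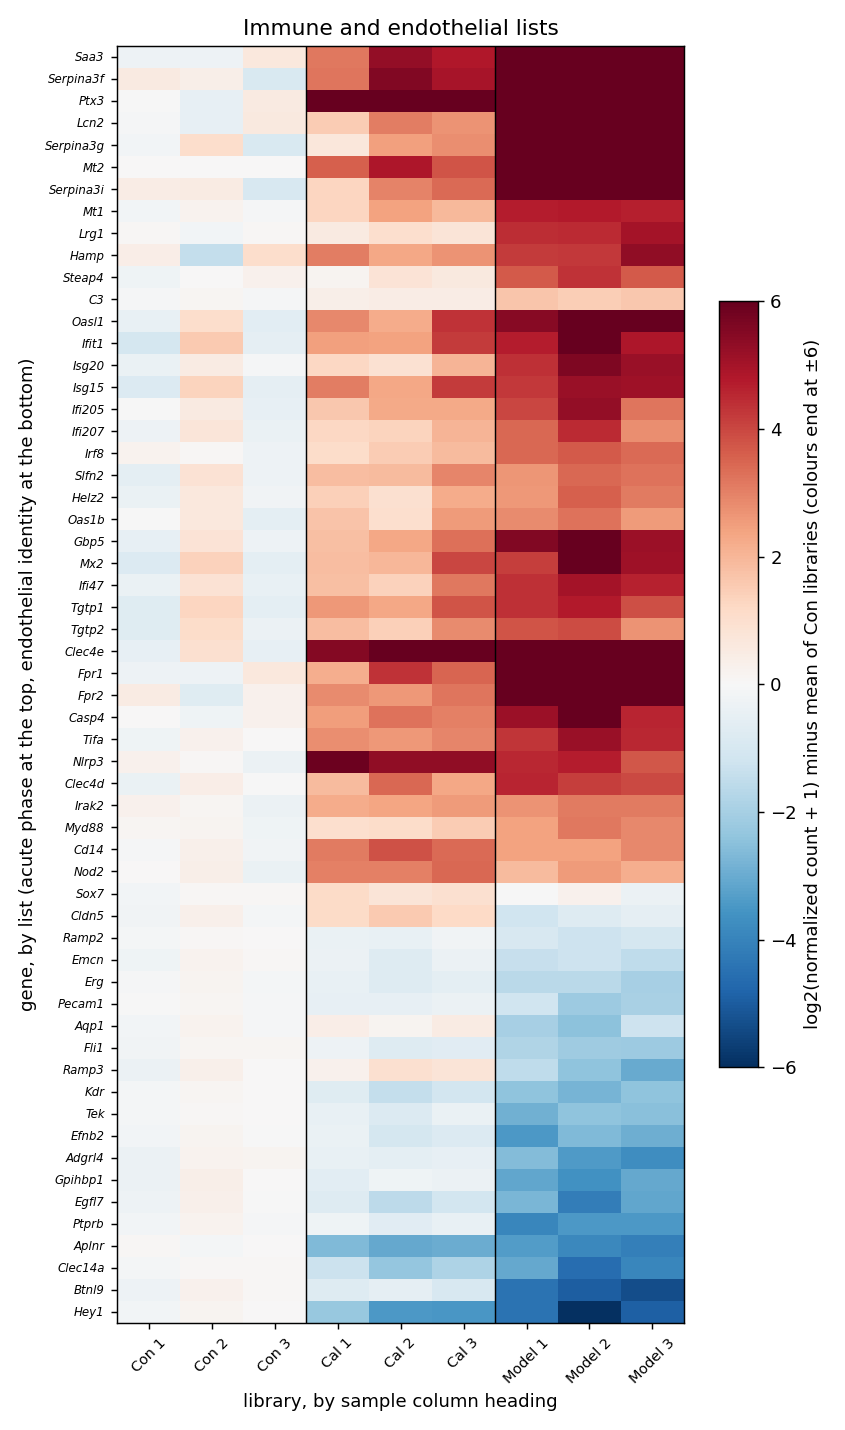
Colour shows log2(normalized count + 1) of each gene minus its mean over the Con-headed libraries, for the shared members of the acute-phase, interferon-stimulated, interferon GTPase, pattern receptor and endothelial identity lists (rows, from top to bottom) in the 9 libraries (columns). The immune rows are red and most endothelial rows blue in the libraries headed Model, with paler colours in most rows of those headed Cal. In the interferon rows Con 2 is redder than the other Con libraries.

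The remaining genes among the 10 largest falls were not in these lists. Wscd1, a membrane protein with a sulfotransferase-like domain, had 4.32, 0 and 4.79 normalized counts against 166, 168 and 148. Myct1, an endothelial membrane protein, had 23.8, 8.54 and 7.67 against 483, 537 and 566. Kif26a, a kinesin-like protein, had 16.2, 15.9 and 14.4 against 457, 472 and 453 (log2 fold change -4.81 ± 0.23, limma adjusted p = 2.19e-07), with little spread in either group. The noncoding gene Gm12002, the microtubule regulator gene Stmn2 and Nxpe4 followed with -4.89, -4.72 and -4.38.

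Matrix proteases and their inhibitors were called in 9 of 10 shared genes, 6 higher and 3 lower, against 35.9% and 26.8% of all 986 genes. Mmp13, a collagenase, had 2727, 4221 and 1648 normalized counts against 21.7, 38.6 and 25.3 (log2 fold change 6.54 ± 0.35, limma adjusted p = 4.39e-07). Timp1, the metalloproteinase inhibitor, had 714, 879 and 1254 against 31.7, 34.3 and 43.4 (4.64 ± 0.26). A protease and an inhibitor of proteases were thus higher in the same libraries. Plau, the urokinase, was lower, with 11.9, 20.7 and 14.4 against 124, 88.7 and 78.7, and Adamts10 fell by 3.56 on the log2 scale. Of 9 shared matrix protein genes 3 were higher and 3 lower as reported, near the 35.9% and 26.8% of all 986 genes, and 2 were higher and 4 lower with quantile normalization. Tenascin C (Tnc) rose by 2.67 and the thrombospondin gene Thbs2 fell by 2.40. Of 43 collagen genes Col27a1 alone was shared, with 168, 320 and 253 against 60.0, 56.2 and 64.3.

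The transforming growth factor and related list gave 1 call in each direction among 6 shared genes, and with quantile normalization 1 higher and 3 lower. Bmp4 had 266, 383 and 379 normalized counts against 86.6, 83.4 and 97.7 (log2 fold change 1.91 ± 0.23, limma adjusted p = 4.11e-05). Tgfb1, the main fibrogenic factor, had 296, 273 and 397 against 625, 528 and 547 (-0.83 ± 0.21, adjusted p = 0.00449), within the fold limit, and 1125, 1406 and 1475 in the libraries headed Cal. With quantile normalization its -1.25 passed the limit. Acta2 had 1457, 1528 and 1578 against 2921, 2683 and 2935 (-0.90 ± 0.14, adjusted p = 0.000243) and passed the limit under median-ratio scaling (-1.06) and quantile normalization (-1.73).

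The immediate-early list divided in 2. It holds genes that cells switch on within minutes of a stimulus, such as Fos and Egr1, and others such as Rcan1, Atf4 and Btg1. Of 23 shared genes, 12 were called higher and none lower, against 35.9% and 26.8% of all 986 genes, and 11 were not called. Fos and Egr1 were called at 1.42 and 1.19, while Egr2, Egr3, Nr4a3 and Dusp1 were not called. Rcan1, a feedback inhibitor of calcineurin, had 12922, 17550 and 21827 normalized counts against 1578, 1397 and 1272 (log2 fold change 3.59 ± 0.20, limma adjusted p = 4.42e-07), with 1901, 3076 and 2025 in the libraries headed Cal. Junb, an AP-1 subunit, had 1918, 2882 and 3059 against 337, 465 and 357 (2.74 ± 0.23), with 4827, 4152 and 3940. The uncalled genes included Fosb, with 17.3, 14.6 and 12.5 against 13.3, 22 and 11.8 (limma 95% interval -0.93 to 0.85), and Nr4a1, an orphan nuclear receptor gene, with 229, 206 and 300 against 241, 333 and 202 (-0.63 to 0.51). Fosb had 404, 179 and 288 and Nr4a1 2350, 1031 and 1501 in the libraries headed Cal, so both are in the tables for a difference of those libraries from the other sets.

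Genes of redox defence and metal handling were called higher in 10 of 12 shared genes (57 in the list) and lower in none. The shares of all 986 genes were 35.9% and 26.8%. Besides the metallothioneins, Slc7a11, the cystine importer, had 68.0, 97.6 and 43.1 normalized counts against 1.67, 0 and 2.72 (log2 fold change 4.96 ± 0.58), and Slc7a2, the arginine importer, had 1938, 2978 and 1880 against 93.3, 53.6 and 90.5 (4.83 ± 0.28). Nos2, the inducible nitric oxide synthase, had 974, 1366 and 842 against 282, 323 and 310 (1.77 ± 0.22). In glucose metabolism, Pfkfb3, which drives glycolysis, had 7951, 10226 and 8021 against 229, 306 and 250 (5.06 ± 0.18, limma adjusted p = 4.79e-08). Slc2a1, the basal glucose transporter, rose by 2.01, and the heart isoform Pfkfb2 fell by 1.42. The steroid-responsive chaperone gene Fkbp5 had 4525, 3282 and 3316 against 233, 217 and 301 (3.88 ± 0.21). Hspa1b, a stress-induced chaperone with a near-identical copy, had -1.26, and the call was lost without Model 2 (limma adjusted p = 0.0557) or without Con 2 (-0.90).

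In PI3K signalling, the pathway named in the study's question about Cal, 4 of 43 listed genes were shared. Pik3r5, a regulatory subunit of the leukocyte PI3Kγ, had 800, 956 and 1035 normalized counts against 20.8, 35.1 and 19.9 (log2 fold change 5.19 ± 0.27, limma adjusted p = 3.88e-07). Inpp5d, the haematopoietic phosphatase SHIP1, had 106, 45.1 and 82.4 against 204, 283 and 225 (-1.67 ± 0.33), and Pik3r3, another regulatory subunit, had 108, 98.8 and 95.8 against 217, 193 and 213 (-1.04 ± 0.21), a call lost without Model 3 (-0.9996) and with a pseudocount of 10 (-0.97). Pik3c3, the kinase of autophagy, was among the 5 genes nearest to 0, with 409, 399 and 351 against 361, 375 and 416 (limma 95% interval -0.40 to 0.42). In the MAPK list, Map3k8 and Map3k6 rose by 3.24 and 2.84 and Mapk3 (ERK1) fell by 1.94. The other 6 shared genes were not called, and median-ratio or quantile scaling gave 2 calls in each direction.

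Muscle genes were few among the 986. Of 15 cardiomyocyte markers 5 are in the model and sham table, where Myh6, the main myosin of the rodent heart, had 221616 to 279684 normalized counts in the libraries headed Con. One of the 15 was shared: Nppb, the natriuretic peptide gene of strained muscle, had 2848, 2843 and 4587 against 1995, 2440 and 3141. The groups overlapped (log2 fold change 0.43, limma 95% interval -0.11 to 0.96, adjusted p = 0.134), and with quantile normalization the sign turned to -0.41. The clearance receptor gene Npr3 had 141, 218 and 124 against 848, 602 and 713 (-2.18 ± 0.26).

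In the sarcomere list 3 of 8 shared genes were called higher, near the 35.9% of all 986 genes, and none lower as reported, but median-ratio scaling gave 2 and 2 and quantile normalization 1 and 4. Fbxo32, the ubiquitin ligase atrogin-1 of muscle wasting, had 7297, 8243 and 4409 normalized counts against 1736, 1859 and 1501 (log2 fold change 1.92 ± 0.23, limma adjusted p = 4.16e-05). Tpm3, a tropomyosin, rose by 1.33, and this was 0.49 with quantile normalization. Ldb3 and Flnc, proteins of the Z-disc, had -0.37 and -0.25. Among ion channels 5 of 10 shared genes were called lower and 2 higher, against 26.8% and 35.9% of all 986 genes. With quantile normalization 7 were lower and 2 higher. The potassium channel gene Kcnk2 had 4.32, 2.44 and 0.958 against 46.7, 56.2 and 48.9. The cation channel gene Trpv4 had 678, 706 and 550 against 112, 117 and 100.

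Clic4 and Mt1 had the highest mean levels over the 6 libraries. Clic4, a chloride intracellular channel protein, had 30567, 57014 and 42259 normalized counts in the libraries headed Model and 7914, 7285 and 7425 in those headed Con (log2 fold change 2.48 ± 0.20, limma adjusted p = 3.9e-06). Sptbn1, a spectrin of the membrane skeleton, came next, with 10749, 12261 and 9966 against 16799, 17610 and 17418, a difference of -0.66 without overlap and within the fold limit. Quantile normalization made it -1.97.

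At the other end, 368 genes were not called. Of these, 82 passed the adjusted p of 0.05 within a fold change of 2 and 286 did not pass it. The limma 95% interval lay within 0.5 of 0 on the log2 scale in 18 genes and within 1 in 211, and for the others the interval reaches further than 1. The genes nearest to 0 were Chd8, Abi2, Samd4b, Pqlc1 and Pik3c3. Chd8, a chromatin remodeller, had 554, 560 and 522 normalized counts against 569, 536 and 530 (limma 95% interval -0.37 to 0.38). In the libraries headed Cal it had 439, 385 and 389, so its place in both tables comes from those libraries. With quantile normalization its difference was -0.52.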

How the data were processed

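Values came from 2 tables of gene values for hearts of 9 rats. The paper states that reads were aligned to rat reference sequences and counted per gene, and it names DESeq2 for its tests. The deposited identifiers and coordinates are those of mouse Ensembl genes, so the reference behind the values is uncertain. The submitters' processing notes name Bowtie 0.12.2, mm8 and mm9. Each deposited signal value is a gene's reads over a library size factor, set within each table, and 100% of values were whole multiples (tolerance 0.01 reads), so reads were recovered. The deposited log2 fold changes, p-values and adjusted p-values are the authors' own comparisons and were not used.

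Libraries were grouped by their sample headings. Values headed Con were divided by the median ratio of the Cal-headed columns between tables. Test: limma 3.58.1 in R 4.3.3, trended prior variance, log2(normalized count + 1), 3 against 3, Benjamini-Hochberg over 986 genes, no filter. Folds and SE are on that scale and understate low genes. The design was written for normalized values or counts, whichever the files held. On simulated data, 99% of 200 genes with a log2 change of 2 among 986 were recovered, with 0 false calls. The simulation gave both groups the same spread. In the data the median SD was 0.35 under the Model and 0.18 under the Con heading, and 618 genes were called. The simulated rates therefore cannot give the error rates of this comparison.

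Members and gene lists were chosen with earlier results of these data known. Named genes were the 10 largest rises and falls (higher group's mean at least 100), up to 4 called genes per list with at least 3 shared genes (mean of at least 50), the 5 highest levels, the 5 nearest to 0 and genes the study measured. Other list members and values were picked from the lists after their values were seen. One named gene is not reported here. Of 17 study genes, 6 were shared. A group at 0 was set to 3 reads, and intervals for 1 to 3 reads are exact at 95% and cover counting error only. Recovered reads were tested with DESeq2 1.42.0 and edgeR 4.0.16 as alternatives. Promoters were RefSeq, GRCr8. The staining, blot and cell data were left out.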

Additional observations from a re-analysis of the deposited data

How the results depend on the processing

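The count of 618 called genes was 604 to 623 under every alternative except 700 without a limit on the fold change: 618 and 610 with pseudocounts of 0.1 and 10, 617 with a mean of at least 10, 617 to 618 with the bridge from single Cal-headed libraries, 623 without a bridge, 623 with median-ratio scaling, 619 with quantile normalization, 610 with TMM and edgeR, 621 with edgeR and 620 with DESeq2 at the bridged size factors, 621 with all 9 libraries in the fit, 606 at an adjusted p of 0.01, and 604 to 622 without one library. No called gene changed sign under any of these. The calls themselves changed more than their count. Of the 618 calls, 552 were kept with quantile normalization, 583 with TMM and edgeR, and 604 with median-ratio scaling or no bridge. Leaving out one library kept 597 to 612 of the 618 calls. With the replicate block the count was 619, and all 618 calls stayed. The numbers did not pair the libraries: same-numbered deviations correlated at -0.12, 0.27 and 0.01, and Model 1 correlated best with Con 3.

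Of 1638 values of 126 named genes under alternatives, 1615 kept their side of the threshold and, outside the genes nearest to 0, their direction, 12 called values (7 genes) fell below it, 4 rose past it, and 6 of genes nearest to 0 moved by more than 1 SD. Nppb changed sign, to -0.41 with quantile normalization (adjusted p = 0.166), and so did the 5 genes nearest to 0 (Chd8, Abi2, Samd4b, Pqlc1 and Pik3c3) under 1 or more alternatives, as far as -0.52 for Chd8 with quantile normalization. No list median changed sign under the scalings. In 5 lists the majority of calls changed: complement, matrix proteins, transforming growth factor, MAPK and sarcomere. The lists without one library were added after seeing the data. The cause of these changes was not tested. Depth on unlisted genes is unknown.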

Other observations

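Caveola genes, chosen after their values were seen, were lower in the libraries headed Model. Caveolae are the flask-shaped membrane pits of endothelium and muscle. Of 9 genes looked for, 5 were shared and all 5 were called lower, against 26.8% of the 986. Cav1, a coat protein of the pit, had 643, 280 and 387 normalized counts against 5350, 6923 and 6097 in the libraries headed Con (log2 fold change -3.88 ± 0.28, limma adjusted p = 1.83e-06), with 3513, 3384 and 3422 in those headed Cal. Cav2, its neighbour on the deposited chromosome 6, had 121, 80.5 and 48.9 against 1208, 1630 and 1296. Cavin2, which shapes the pit in endothelium, had 234, 222 and 177 against 3582, 4263 and 3972 (-4.22 ± 0.18), while Ehd2 at the neck of the pit and Cavin1, needed in every cell type, had -2.27 and -1.20.

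Transcription factors, by the family given in the tables, numbered 89, of which 25 were called higher and 20 lower, both shares below the 35.9% and 26.8% of all 986 genes. Of 15 bZIP factors 10 were called higher and none lower, with a median log2 fold change of 1.42. Of 8 ETS factors 1 was higher and 4 lower (median -1.15), and of 21 zinc finger factors of the C2H2 type 2 were higher and 5 lower. Genes picked by symbol alone (Slc followed by a number, Slc9a3r2 included) came to 24, with 14 called higher and 2 lower (median 1.65). These families were also chosen after their values were seen.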
